A study of Mus musculus and Rattus norvegicus with 80 samples.

Results

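The livers of 3 rats were compared with the brains of the same rats, locus by locus, over the annotated full-length copies of LINE-1 (long interspersed element-1, or L1) in the rat genome. The 6 libraries, of 80 in the series, were assigned to the organs by their labels. All animals (967, 968 and 974) were males of the inbred strain F344 at 4.8 mo of age with no treatment named in the labels, and both groups thus share strain, sex and age and differ in organ. RNA was taken from the cytoplasm of a small dissected piece of each organ, and polyadenylated molecules were sequenced as strand-specific read pairs. The values are reads in the orientation of the element, counted in a fixed window for each of 4563 loci on the rn6 assembly, 2286 on the plus and 2277 on the minus strand. These loci carry 3859 names, since a name can stand for several places, and a locus is therefore always identified here by its name and position.

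L1 is a retrotransposon that copies itself through RNA. A full-length element carries a promoter in its own 5′ untranslated region, built of tandem monomers in rodents, and encodes the RNA-binding protein ORF1p and the endonuclease and reverse transcriptase ORF2p. RNA of the element can come from this promoter, and it can also be part of other transcripts that run through the element. Copies of L1 resemble each other, and since only uniquely placed reads were kept, the level of a locus can also depend on how much of its sequence is unique. The files list no genes, so neither the identity of the organs nor the genes around a locus were checked here. A piece of organ holds many cell types, and fewer cells of a type cannot be told apart from less RNA per cell.

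The livers had between 17.994 and 25.4382 M mapped reads and the brains between 18.816 and 25.6665 M. A count of 3 reads, used as the floor, corresponds to an FPKM (fragments per kb of window per M mapped reads, calculated from reads) of 0.0197 to 0.0278 in livers and 0.0195 to 0.0266 in brains for a window of 6000 bp. Floors and intervals cover counting error only, because reads of amplified libraries are not independent molecules. Both mates of a pair were counted, so that intervals and floors on reads are also too narrow for counting error. Intervals of ratios are therefore given on pairs (reads of a library halved and rounded up), and every lower bound of a fold below would be 2 times smaller with a floor of 3 pairs, or 6 reads, a choice added after the data had been seen. Of all loci, 3454 (75.7%) had no read in any of the 6 libraries, and 745 of the other 1109 had at most 2 reads in the 6 libraries together.

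A single locus, RAT_FL_L53, held most L1 reads in both organs. It is located on chromosome 1 from 20114770 to 20120769 on the plus strand. The livers of rats 967, 968 and 974 had 17508, 14376 and 18888 reads there, and the brains 11934, 11206 and 8394. This was 96.6% (95% Wilson interval on reads, 96.3% to 96.8%), 95.5% (95.1% to 95.8%) and 92.4% (92.0% to 92.8%) of the L1 reads in livers. In brains it was 87.4% (86.9% to 88.0%), 92.0% (91.5% to 92.4%) and 84.7% (84.0% to 85.4%), so that every liver had a higher share than any brain.

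The level of RAT_FL_L53 was 125 ± 7.90 FPKM (SD, n = 3) in livers and 81.7 ± 10.1 FPKM (SD, n = 3) in brains, and the groups did not overlap. The log2 fold change from brain to liver was 0.61 ± 0.11 (SE; edgeR's quasi-likelihood test, Benjamini-Hochberg adjusted p = 0.00204). With the size factors of DESeq2 in place of mapped reads, the difference was 0.26 on the log2 scale and did not pass the threshold (DESeq2, adjusted p = 0.164). Those size factors come from the tested loci with reads in all 6 libraries, RAT_FL_L53 itself among them, and are no independent scale. The others are RAT_FL_L3422, RAT_FL_L2295, RAT_FL_L1020 and RAT_FL_L5280. In the lungs and testes of the same rats, which do not enter the comparison, the locus had 217 ± 8.69 and 46.3 ± 2.69 FPKM (SD, n = 3 each). The reads covered 737 to 757 bp of its 6000 bp window in the 6 libraries.

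Because of this locus, the direction of the difference in total L1 reads depended on whether it was counted. Over all loci, livers had 729.8, 836.9 and 803.6 L1 reads per M mapped reads and brains 531.8, 607.8 and 526.6, with every liver above every brain. The mean of log2 was 0.51 higher in livers (exact permutation test, two-sided, p = 0.1, the smallest that 3 against 3 libraries allow; adjusted over 4 comparisons between libraries, 0.2). Within animals the liver was higher in 3 of 3 (exact sign-flip test, p = 0.25, which is the lowest that 3 animals allow).

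Without RAT_FL_L53, livers had 25.1, 38.0 and 61.0 L1 reads per M and brains 66.9, 48.9 and 80.5. The mean was lower in livers (41.4 ± 18.2 against 65.4 ± 15.9, SD, n = 3 each), and the groups overlapped, since the liver of rat 974 was above the brain of rat 968 (exact permutation test, p = 0.2). In each of the 3 rats the liver had fewer of these reads than the brain. Loci below the test minimum explained below had 11.4, 18.9 and 34.5 reads per M in livers and 39.5, 26.5 and 53.8 in brains (exact permutation test, p = 0.2).

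**Figure D1:**
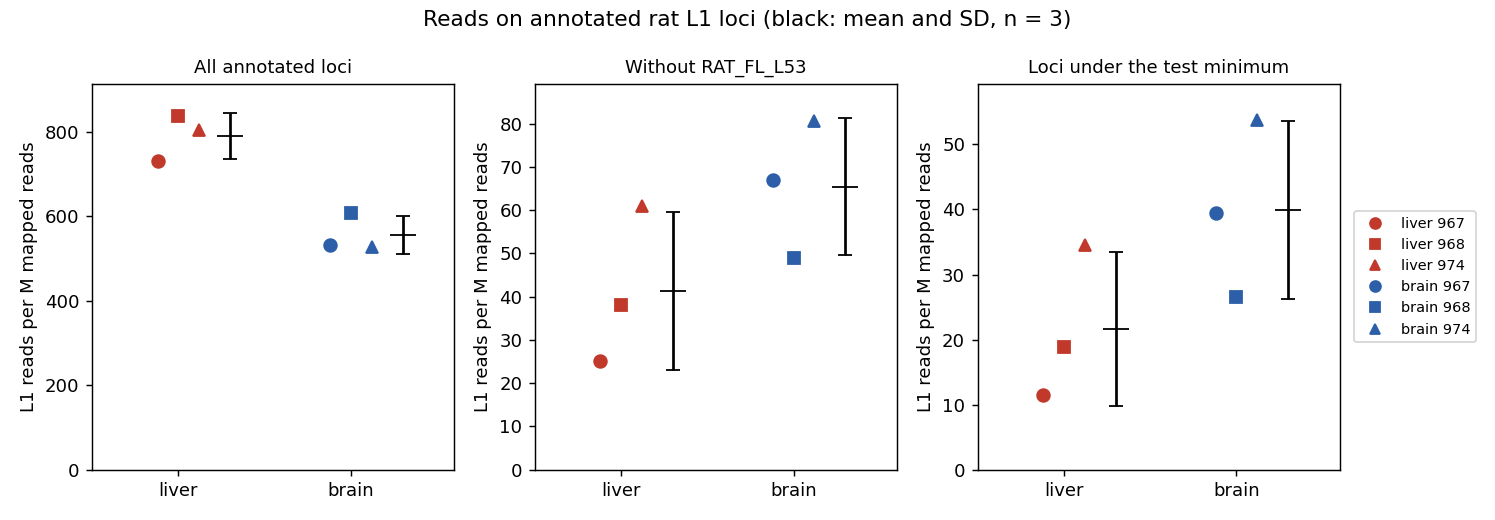
Reads on annotated rat L1 loci per M mapped reads for each liver (red) and brain (blue) library, over all loci (left), without RAT_FL_L53 (middle) and over the loci that were not tested (right), on linear axes from 0; symbols mark the rats and black bars the mean and SD (n = 3). Livers sit above brains on the left (729.8 to 836.9 against 526.6 to 607.8), while the means are in the opposite order in the other panels, where the groups overlap.

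Fewer loci had reads in livers than in brains. At least 1 read was found at 116, 145 and 291 loci in the livers and at 398, 242 and 376 loci in the brains of rats 967, 968 and 974. More than 10 reads, the level from which the study inspected loci by eye, were found at 7, 8 and 16 loci in livers and at 17, 11 and 18 loci in brains. The liver was lower than the brain of the same rat in every case, but the groups overlapped, with the liver of rat 974 above the brain of rat 968. The difference of -5 loci with more than 10 reads gave p = 0.2 (exact permutation test, adjusted over 4 comparisons, 0.2). It was -7.83 loci without the liver of rat 974. After all libraries were thinned to the size of the smallest, 8.43 ± 1.73 such loci were expected in livers and 13.8 ± 4.18 in brains (SD, n = 3 each).

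The share of the leading loci was higher in every liver than in any brain. The 10 loci with most reads held 97.5% ± 1.29 of the L1 reads in livers and 92.7% ± 2.80 in brains (SD, n = 3 each), a difference of 4.82 percentage points (exact permutation test, p = 0.1, adjusted over 4 comparisons, 0.2). RAT_FL_L53 makes up most of both shares. Without it, in a comparison added after the data had been seen, the 10 leading loci held 58.7%, 53.9% and 48.7% of the other L1 reads in livers and 41.8%, 45.5% and 35.4% in brains, again with no overlap (exact permutation test, p = 0.1). The strand of the reads other than those of RAT_FL_L53 was compared after the data had been seen. In livers 49.9%, 46.6% and 42.9% of them were on loci of the plus strand, and in brains 57.5%, 62.6% and 56.1%. Every liver was below every brain (exact permutation test, p = 0.1, the smallest possible, without adjustment). RAT_FL_L3422 on the plus strand had 300, 215 and 147 of these reads in brains and 97, 73 and 80 in livers. RAT_FL_L6968 on the minus strand had 88, 93 and 197 in livers and none in brains. Such single loci move the shares in this direction, and the strand of the reads without them was not compared.

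**Figure D2:**
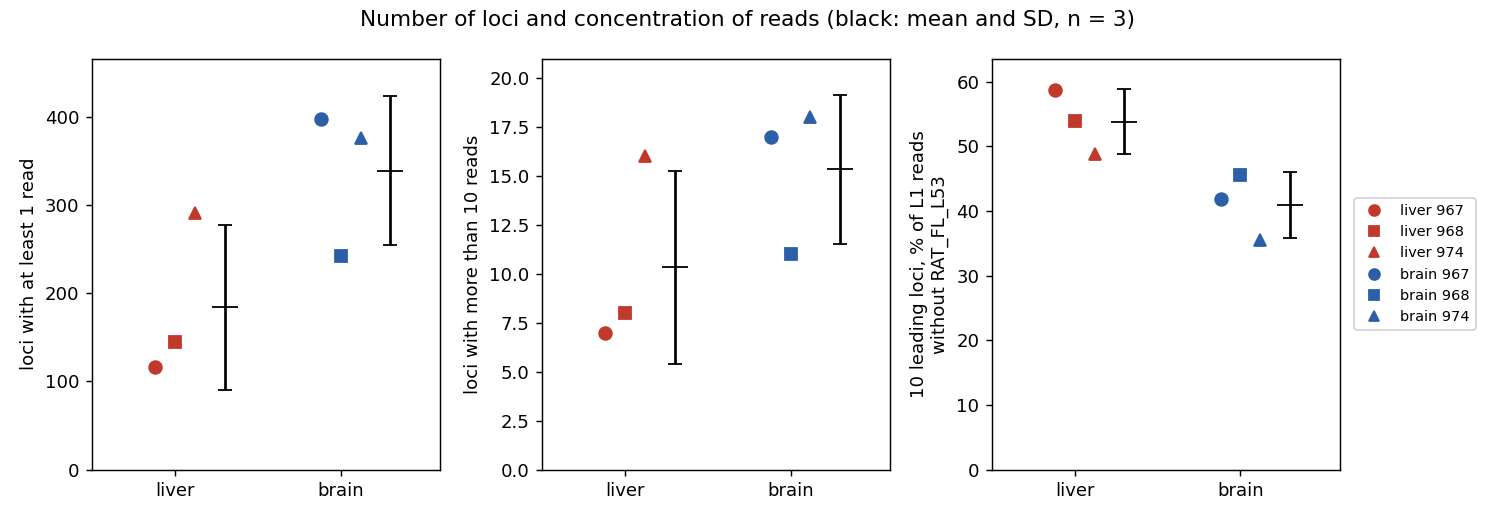
Number of rat L1 loci with at least 1 read (left), number with more than 10 reads (middle) and percent of L1 reads on the 10 leading loci when RAT_FL_L53 is left out (right) for each liver (red) and brain (blue) library, with symbols for the rats and black bars for mean and SD (n = 3). The liver of rat 974 lies among the brains in the first 2 panels, and livers lie above all brains in the third (48.7% to 58.7% against 35.4% to 45.5%).

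A part of the detected loci was common to both organs. Of the 431 loci with a read in any liver, 125 (29.0%) had a read in a brain, which is 15.6% of the 803 loci with a read in any brain. Among all 4563 annotated loci, 803 had a read in a brain and 431 in a liver. These are smaller shares than 29.0% and 15.6%. A read in all 3 livers was found at 33 loci (7.66% of the liver loci) and in all 3 brains at 46 loci (5.73% of the brain loci). Of these, 7 loci had reads in all 6 libraries, 17 were in all livers and in no brain, and 30 were in all brains and in no liver. Most detected loci have 1 read pair, for which presence in 1 library and absence in another is not a difference at this depth. The liver and brain levels of 62 of the 1109 loci (5.59%) did not overlap, 26 (2.34%) with higher levels in livers and 36 (3.25%) with higher levels in brains.

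Loci were tested one by one when they had at least 10 reads in at least 3 of the 6 libraries, which left 16. Of these, 13 (81.2%) differed between livers and brains at an adjusted p of 0.05 (edgeR's quasi-likelihood test), 5 (31.2%) with higher levels in livers and 8 (50.0%) with higher levels in brains. This share follows in part from the minimum itself. The minimum was met by 4 loci through the livers alone and by 7 through the brains alone, and such loci had fewer than 10 reads in every library of the other organ. Only 5 loci had at least 10 reads in a liver and in a brain. The liver and brain levels did not overlap at 15 of the 16 loci (93.8%), which the minimum favours in the same way. When every one of the 1109 loci with a read was tested, 27 (2.43%) differed, 10 (0.902%) higher in livers and 17 (1.53%) higher in brains, and 12 of the 13 loci were among them.

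**Figure D3:**
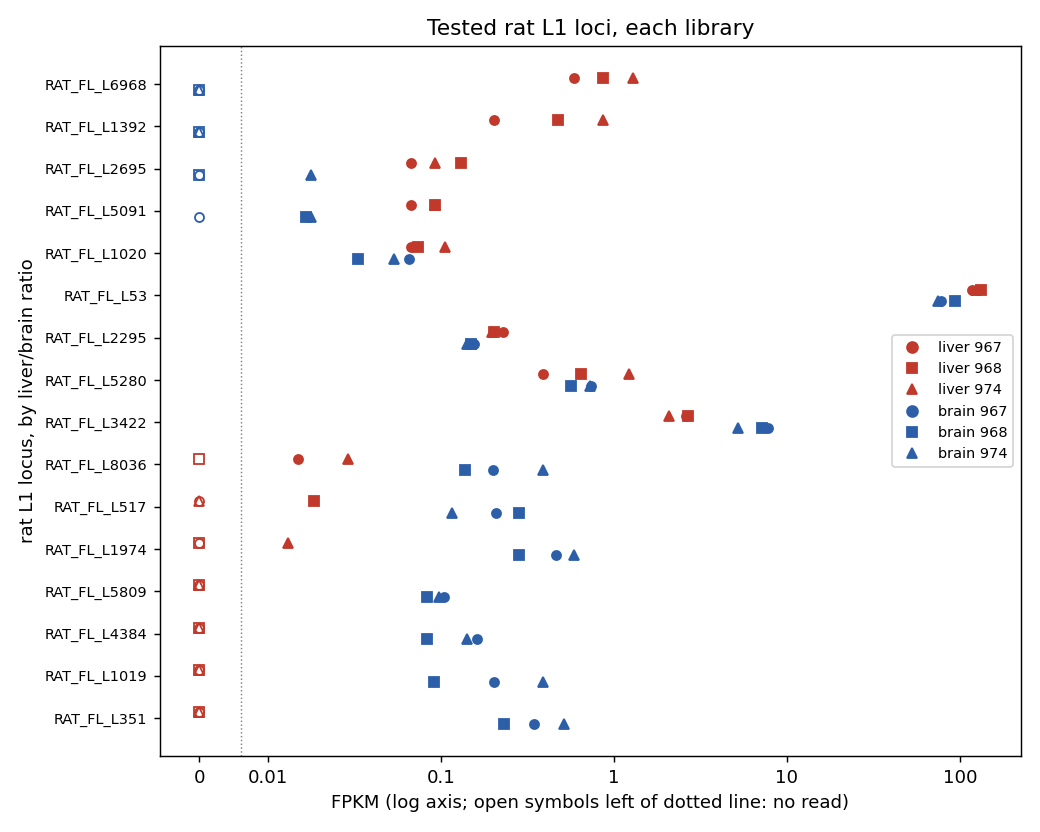
FPKM of the 16 tested rat L1 loci (log axis) in each liver (red, upper row of each locus) and brain (blue, lower row) library, ordered by the fitted ratio of liver to brain, with symbols for the rats and open symbols left of the dotted line for libraries with no read. The groups overlap at RAT_FL_L5280 alone among these loci, and 6 loci have no read in one of the organs.

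RAT_FL_L6968 and RAT_FL_L1392 were the tested loci with reads in livers and none in brains. RAT_FL_L6968 lies on chromosome 1 from 258822125 to 258828124 on the minus strand. The livers of rats 967, 968 and 974 had 88, 93 and 197 reads there (0.590, 0.861 and 1.29 FPKM), and the brains had 0, 0 and 0. Its mean level of 0.914 ± 0.353 FPKM (SD, n = 3) was at least 38.6-fold higher than the floor of 3 reads per brain (edgeR, adjusted p = 0.00122). Among the lungs and testes a single lung had reads, 2 in number. The covered part of the window was 55.0%, 67.8% and 86.0% in the 3 livers, the widest of the tested loci in each liver.

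RAT_FL_L1392, on chromosome 2 from 126333030 to 126339029 on the plus strand, had 30, 51 and 132 reads in livers (0.201, 0.472 and 0.865 FPKM) and none in brains. The level in livers was at least 21.7-fold higher than the floor of the brains (edgeR, adjusted p = 0.00263), and at least 14.2-fold higher without the liver of rat 974. The spread between the livers was wide, with 18.9%, 30.6% and 82.4% of the window covered. The lungs had no read at this locus and 1 testis had 2.

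The other loci with higher levels in livers were on the sex chromosomes, at levels near the floor. RAT_FL_L2695, on chromosome X from 33061598 to 33067597 on the minus strand, had 10, 14 and 14 reads in livers (0.0671, 0.130 and 0.0917 FPKM) and 0, 0 and 2 in brains. The ratio of liver to brain over all reads was 18.0, with a 95% exact counting interval on pairs from 2.85 to 746 (edgeR, adjusted p = 0.00334). The brain of rat 974 held all brain reads, and the log2 fold change of 3.95 was 3.32 without the brain of rat 967. Its liver reads covered 197 to 203 bp of the window in every liver, a stretch of about the same length each time.

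RAT_FL_L5091 lies on chromosome Y, which holds 42 of the annotated loci, from 574227 to 580226 on the minus strand. Livers had 10, 10 and 14 reads (0.0671, 0.0926 and 0.0917 FPKM) and brains 0, 2 and 2. The mean was 7.32-fold higher in livers, with a log2 fold change of 2.88 ± 0.67 (SE; edgeR, adjusted p = 0.00468). It was 2.22 without the brain of rat 967, which had no read. The call was lost with DESeq2 and its own size factors (DESeq2, adjusted p = 0.0572). It was also lost when all loci with a read were tested (edgeR, adjusted p = 0.169). The lungs of the same rats had more reads than the livers, with 39, 50 and 82, and the testes had none.

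The loci with higher levels in brains were more numerous, and 4 of them had no read in any liver. RAT_FL_L351, on chromosome 1 from 116504137 to 116510136 on the minus strand, had 53, 28 and 58 reads in the brains of rats 967, 968 and 974 (0.344, 0.233 and 0.514 FPKM). The livers, lungs and testes had no read at all there. The brain level was at least 16.1-fold above the floor of the livers (edgeR, adjusted p = 0.00125).

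RAT_FL_L1019, on chromosome 2 from 39475954 to 39481953 on the plus strand, had 31, 11 and 44 brain reads (0.201, 0.0914 and 0.390 FPKM) and was at least 10.1-fold above the floor of the livers (edgeR, adjusted p = 0.00304), or at least 6.50-fold without the brain of rat 974. In contrast to RAT_FL_L351 it also had reads in every lung (2 to 4) and every testis (8 to 12).

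RAT_FL_L4384, on chromosome 8 from 60622337 to 60628336 on the plus strand, had 25, 10 and 16 brain reads (0.162, 0.0831 and 0.142 FPKM), at least 5.73-fold above the floor of the livers (edgeR, adjusted p = 0.00158). The brain was not the organ with the highest level, since the testes had 64, 64 and 120 reads (0.728 ± 0.235 FPKM, SD, n = 3). The liver was the one organ of the 4 without a read of this locus.

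RAT_FL_L5809, on chromosome 13 from 113880330 to 113886329 on the plus strand, had 16, 10 and 11 brain reads. Its brain levels of 0.104, 0.0831 and 0.0974 FPKM were at least 4.21-fold above the floor of the livers (edgeR, adjusted p = 0.00122). The SD between brains was 0.0106 FPKM, small beside those of the loci above. Lungs and testes had at most 2 reads each.

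At RAT_FL_L1974 and RAT_FL_L517 a single liver had 2 reads, so that without that liver no liver read remained. RAT_FL_L1974, on chromosome 3 from 48183738 to 48189737 on the plus strand, had 71, 34 and 66 reads in brains (0.461, 0.283 and 0.585 FPKM) and 0, 0 and 2 in livers. The ratio of brain to liver was 90.5, with an exact counting interval on pairs from 15.9 to 3635 (edgeR, adjusted p = 0.00122). Its reads covered 63.4%, 35.0% and 56.8% of the window in brains, the widest of the brain loci in rats 967 and 974. The lungs had none, and 2 testes had 4 reads each.

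RAT_FL_L517, on chromosome 1 from 155565263 to 155571262 on the plus strand, had 32, 34 and 13 reads in brains (0.208, 0.283 and 0.115 FPKM) and 0, 2 and 0 in livers. The ratio of brain to liver was 41.8 with an exact counting interval on pairs from 7.17 to 1713 (edgeR, adjusted p = 0.00204). Neither lungs nor testes had a read there, so that RAT_FL_L517 and RAT_FL_L351 were the brain loci without reads outside brain and liver.

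RAT_FL_L8036 and RAT_FL_L3422 had reads in livers as well. The window of RAT_FL_L8036, on chromosome 13 from 109389714 to 109395149 on the minus strand, is 5436 bp long. It had 28, 15 and 40 reads in brains (0.201, 0.138 and 0.391 FPKM) and 2, 0 and 4 in livers. Its log2 fold change from brain to liver was -3.84 ± 0.75 (SE; edgeR, adjusted p = 0.00268), or 16.7-fold higher in brains by the means. It was -4.67 without the liver of rat 974, which had 4 of the 6 liver reads. Without the brain of rat 974, which had 40 reads, it was -3.34.

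Among the 16 tested loci, RAT_FL_L3422 had, after RAT_FL_L53, the highest mean FPKM in both organs. Its window on chromosome 6, from 6180602 to 6182105 on the plus strand, has 1504 bp, which makes its FPKM high for its reads. Brains had 300, 215 and 147 reads (7.77, 7.13 and 5.19 FPKM) and livers 97, 73 and 80 (2.60, 2.70 and 2.09 FPKM), with no overlap. The log2 fold change was -1.45 ± 0.30 (SE; edgeR, adjusted p = 0.00304), or 2.72-fold higher in brains. With the L1 reads other than those of RAT_FL_L53 as library size, an alternative added after the data had been seen, it was -0.66 and did not pass (edgeR, adjusted p = 0.150). Testes had 8.25 ± 1.03 FPKM and lungs 3.86 ± 0.393 FPKM (SD, n = 3 each).

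As groups, the 4 loci higher in livers other than RAT_FL_L53 had 138, 168 and 357 reads in livers and 0, 2 and 4 in brains. The 8 loci higher in brains had 556, 357 and 395 reads in brains and 99, 75 and 86 in livers, of which RAT_FL_L3422 alone had 97, 73 and 80. These sums describe loci chosen by the test and are not further evidence of it.

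The remaining 3 tested loci had reads in all 6 libraries and did not pass. RAT_FL_L5280, on chromosome 2 from 105001590 to 105007589 on the minus strand, had 58, 70 and 186 reads in livers (0.389, 0.648 and 1.22 FPKM) and 113, 68 and 82 in brains (0.734, 0.565 and 0.726 FPKM). The groups overlapped, and the log2 fold change was 0.16 ± 0.46 (SE; edgeR, adjusted p = 0.741). The sign rested on the liver of rat 974, since without it the value was -0.39 (edgeR, adjusted p = 0.350). All reads of this locus lay on 116 to 139 bp of the window.

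RAT_FL_L2295, on chromosome 4 from 6018959 to 6024958 on the plus strand, had 0.228, 0.204 and 0.197 FPKM in livers and 0.156, 0.150 and 0.142 FPKM in brains. These do not overlap, but the log2 fold change of 0.49 ± 0.28 (SE) did not pass (edgeR, adjusted p = 0.136). With the animal as a block it did pass (log2 fold change 0.49, edgeR, adjusted p = 0.0479), while with total L1 reads as library size the value was -0.01. The lungs had 0.436 ± 0.110 FPKM (SD, n = 3). The reads covered 573, 435 and 603 bp of the 6000 bp window in livers and 433, 420 and 431 bp in brains.

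RAT_FL_L1020, on chromosome 2 from 18889200 to 18895199 on the minus strand, had 10, 8 and 16 reads in livers (0.0671, 0.0741 and 0.105 FPKM) and 10, 4 and 6 in brains (0.0649, 0.0333 and 0.0531 FPKM). Its log2 fold change was 0.68 ± 0.38 (SE; edgeR, adjusted p = 0.136). The study lists this locus for brain, and every liver here had a higher FPKM than any brain. The lowest liver and the highest brain, both of rat 967, had 10 reads each, so their order rests on the mapped reads alone.

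The fraction of the window that was covered differed more between loci than between organs. Over loci with more than 10 reads, its median was 0.190, 0.0992 and 0.143 in livers and 0.212, 0.168 and 0.206 in brains, and the groups overlapped (difference of means -0.0514, exact permutation test, p = 0.2, adjusted over 4 comparisons, 0.2). Without the liver of rat 968 the difference was -0.0291. The liver was below the brain in each of the 3 rats. At RAT_FL_L6968, RAT_FL_L1392, RAT_FL_L1974 and RAT_FL_L351 the reads were spread over a large part of the window and covered more of it where there were more reads. At RAT_FL_L53 and RAT_FL_L5280 the covered length was nearly the same at all read numbers and in both organs. Which transcripts the reads of these short stretches belong to was not tested.

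**Figure D4:**
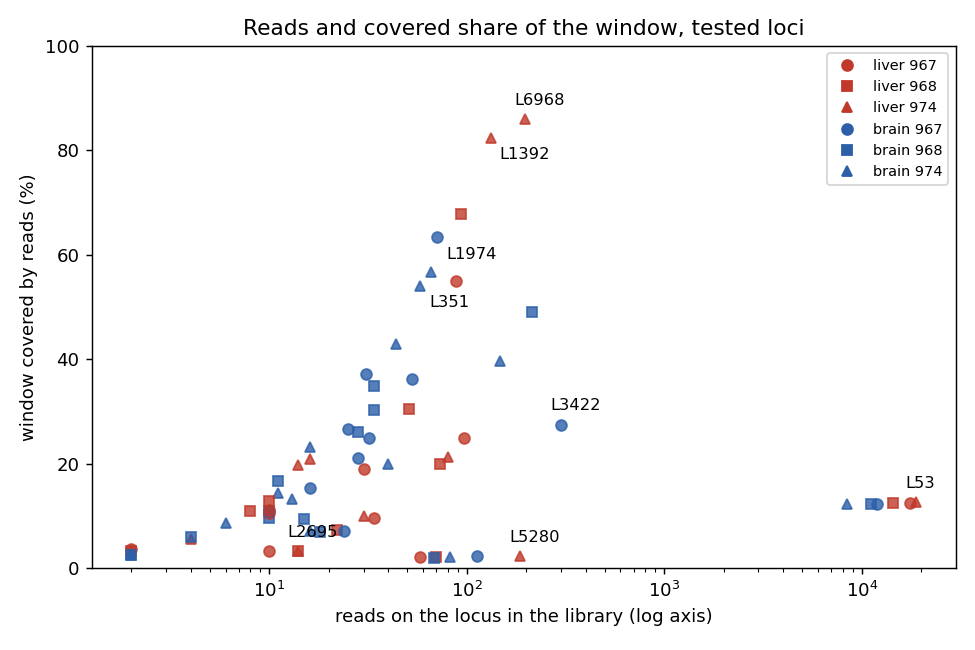
Percent of the counting window covered by reads against the number of reads on the locus (log axis), 1 point for each tested rat L1 locus and library with a read, livers in red and brains in blue, symbols for the rats. RAT_FL_L53 stays near 12% at 8394 to 18888 reads and RAT_FL_L5280 near 2% at 58 to 186 reads, while RAT_FL_L6968 reaches 86.0% at 197 reads.

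The study's curated table, made on these libraries and thus no independent list, holds 6 loci for rat liver and 5 for rat brain. It keeps loci whose reads the study judged by eye to come from the L1 promoter. Of the 13 loci that passed, it lists RAT_FL_L2695 for liver and RAT_FL_L517 for brain. It lists none of the others for any of the 4 rat organs. Each of the others had more than 10 reads in a liver or a brain, the level from which the study inspected loci. By the study's curation they were thus not kept as expressed from the L1 promoter. Where their reads come from was not tested here. Of the 6 liver loci, 1 was tested, RAT_FL_L2695, and it passed with higher levels in livers. The 6 loci together had 34, 40 and 54 reads in livers and 4, 4 and 8 in brains. RAT_FL_L472 (chromosome 1, 145687842 to 145693841, plus strand) had 6, 16 and 8 liver reads and no brain read, at least 3.39-fold above the floor, or at least 1.96-fold without the liver of rat 968. RAT_FL_L1535 (chromosome 1, 76030254 to 76036253, minus strand) had 10, 2 and 2 liver reads, and no read in a brain, a lung or a testis.

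RAT_FL_L4860 (chromosome 6, 76304013 to 76310012, minus strand) had 0, 6 and 10 liver reads, and RAT_FL_L3928 (chromosome 17, 69083247 to 69089246, minus strand) had 4, 0 and 10. Neither had a brain read, but both had a liver without one. RAT_FL_L2229 (chromosome 3, 137804463 to 137810462, plus strand) had 4, 2 and 10 reads in livers and 4, 4 and 6 in brains. Its mean levels of 0.0370 ± 0.0251 and 0.0375 ± 0.0141 FPKM (SD, n = 3 each) lay within the spread between libraries, and the groups overlapped.

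Of the 5 brain loci, RAT_FL_L517 and RAT_FL_L1020 were tested and the first passed. The 5 loci together had 73, 40 and 34 reads in brains and 10, 10 and 18 in livers. RAT_FL_L3750 (chromosome 6, 125371426 to 125377209, plus strand) had 16, 2 and 9 brain reads and RAT_FL_L1601 (chromosome 14, 22610959 to 22616958, minus strand) had 11, 0 and 6, and no liver had a read of either. RAT_FL_L6879 (chromosome 16, 25715233 to 25721232, minus strand) had 4 reads in the brain of rat 967 and 2 in the liver of rat 974, which is no difference at this depth (ratio 2.12, exact counting interval on pairs 0.110 to 125).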

How the data were processed

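Per the study's methods, read pairs were aligned to rn6 with Bowtie 0.12.8, with at most 3 mismatches. Pairs with more than 1 possible place were discarded. Duplicates were then removed, and the authors counted reads per L1 window and strand with bedtools 2.27.1. The deposited counts are not normalized or curated, and the same files hold the fraction of each window covered, as deposited. Which of the study's sequencing platforms each library was run on is not given in the sources used here. Mapped reads were recovered by dividing the deposited reads of 3 to 8 listed loci per library by the FPKM that the study tabulates. All of these loci coincided on 1 value in each library. That value was identical for liver 967 and lung 974, and should it be wrong for the former, all FPKM and reads per M of liver 967 would change.

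Counts were compared in R 4.3.3 by the edgeR 4.0.16 quasi-likelihood test between 3 livers and 3 brains. Mapped reads were the library size, with Benjamini-Hochberg adjustment over the tested loci. Library values were compared with exact permutation tests in scipy 1.17.1. By the labels, a number marks 1 rat. The deviations of liver and brain from their organ means across the 16 tested loci correlated with 0.106, 0.590 and 0.240 in the 3 rats, so the animal was also used as a block. The SE of a log2 fold change was calculated from the test, as its size divided by the square root of the F statistic. FPKM used the real window length. Coordinates are 1-based.

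Loci are named when they pass the test with groups that do not overlap (up to 10 in each direction), are among the 5 highest in an organ, are listed by the study for liver or brain, or are the 3 highest tested loci that did not pass. The comparison, lists and tests were chosen with earlier results of these data known. Alternatives were DESeq2 1.42.0, other library sizes, no filter, all 12 rat libraries, the block, reduced overlapping windows, halved counts and leaving out each library. Rat genes and sequences and read alignments were not analysed here.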

Additional observations from a re-analysis of the deposited data

Results flagged for a closer look

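The lungs and testes of the same rats lie outside the comparison, and 4 tested loci had a level there in every library that was above all livers and brains. RAT_FL_L53 had a mean of 217 ± 8.69 FPKM (SD, n = 3) in lungs, where the lowest lung had 208 and the highest liver 133 FPKM. RAT_FL_L2295, which did not pass between liver and brain, had 0.436 ± 0.110 FPKM in lungs (0.322 to 0.542), above the highest liver at 0.228. RAT_FL_L5091 on chromosome Y had 0.473 ± 0.110 FPKM in lungs (0.347 to 0.550), above the highest liver at 0.0926. RAT_FL_L4384 had 0.728 ± 0.235 FPKM in testes (0.555 to 0.995), above the highest brain at 0.162. None of these differences was tested here.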

How the results depend on the processing

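The count of 13 loci (5 higher in livers, 8 in brains) was 13 (5 and 8) without any 1 of the 6 libraries. The same 13 loci passed each time. They also passed with all 12 rat libraries, with overlapping windows reduced and with total L1 reads as library size, with or without TMM. All of these fits kept the 16 loci that met the minimum in the 6 libraries. Loci that met it through 1 organ alone (4 through livers, 7 through brains) would not meet it without a library of that organ. None of the 16 windows overlaps another on its strand, so reducing overlaps could not change the count. The count was 27 (10 and 17) of 1109 without the filter, 11 (3 and 8) with DESeq2 and its own size factors, and 14 of 16 with the animal as a block. With halved counts it was 14 of 17, including a locus below the main minimum. With mapped reads as size factors in DESeq2, added after the data had been seen, all 13 passed. Without RAT_FL_L53 in the library size, also added, 14 of 15 passed, of which 11 were among the 13. RAT_FL_L1020, RAT_FL_L2295 and RAT_FL_L5280 then passed with higher levels in livers (log2 1.36, 1.26 and 0.74). Other library sizes moved the log2 fold changes of the other 15 loci by a median of -0.48 (total L1 reads), 0.23 (total L1 reads with TMM), -0.33 (DESeq2) and 0.59 (without RAT_FL_L53). Directions turned for RAT_FL_L5280, at -0.38 with total L1 reads, -0.21 with DESeq2 and -0.39 without the liver of rat 974, and for RAT_FL_L2295, at -0.0143 with total L1 reads, and the cause was not tested. The log2 difference in L1 reads per M was -0.73 without the locus with most reads of each library. Leaving out 1 library gave 0.47 to 0.58 for this difference, -7.83 to -3.33 for loci with more than 10 reads, 3.46 to 6.25 points for the 10 leading loci and -0.0743 to -0.0291 for the covered fraction. The mean differences within animals (the block) equal those between groups by arithmetic, because every rat has both organs. They were 0.51, -5, 4.82 and -0.0514 (exact sign-flip test, p = 0.25 for each). In the test of loci, the block changed no call other than that of RAT_FL_L2295. With at least 1 read as the minimum the covered fraction differed by -0.000167. With 3 libraries per organ no comparison of library values can reach 0.05, and 10 reads on a locus are about 5 read pairs.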

Other observations

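When all loci with a read were tested, 15 loci passed that were below the minimum of the main test, 6 with higher levels in livers and 9 with higher levels in brains, and 14 of them had no read in the other organ. They were chosen after their values were seen and rest on 18 to 71 reads over the 6 libraries. Some of these reads came mostly from 1 rat. RAT_FL_L7861 (chromosome 6, 95469928 to 95475927, minus strand) had 8, 6 and 57 reads in livers of rats 967, 968 and 974 and none in brains (edgeR, adjusted p = 6.3e-08). RAT_FL_L2262 (chromosome 1, 224513924 to 224519923, minus strand) had 6, 6 and 31 liver reads and none in brains. RAT_FL_L6071 (chromosome X, 41681389 to 41687388, minus strand) had 36, 6 and 2 reads in brains and none in livers.

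RAT_FL_L1212 was the neighbour of the brain locus RAT_FL_L351 on the same strand of chromosome 1. Its window ends at 116473095, 31041 bp before that of RAT_FL_L351 begins. It had 28, 2 and 28 brain reads beside 53, 28 and 58 at RAT_FL_L351, and no liver had a read of either. Near the liver locus RAT_FL_L6968, the windows of RAT_FL_L781 and RAT_FL_L783 lie on the opposite strand, 17325 and 74326 bp away. RAT_FL_L781 had no read, and RAT_FL_L783 had 6, 2 and 2 liver reads and no brain read.

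Among livers, the library of rat 967 had the lowest level at 9 of the 12 tested loci with liver reads, ties included, and among brains the library of rat 968 had the lowest at 9 of 14. Both organs of rat 974 had the most L1 reads per M outside RAT_FL_L53, 61.0 in liver and 80.5 in brain.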
